A study of Bos taurus with 6 samples.

Results

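Collagen chains were taken from the expression table of bovine (Bos taurus) cells as every gene whose symbol reads COL, a type number, A and a chain number. Of the 23475 genes in the table, 43 met this rule, of which 11 are fibrillar chains, 6 are type IV chains of the basement membrane and 26 belong to other classes. The cells were isolated from subcutaneous fat and labelled as adipocytes, and they were transfected for 48 h with agomir NC or bta-miR-484 agomir, with 3 libraries of each. Agomirs are modified RNA duplexes that raise the activity of their miRNA, and agomir NC stands for a negative control of that kind. The study isolated its preadipocytes from the fat of 3 premature calves and gives n = 3 for the sequencing. No other genotype, age or treatment separates the groups in the labels. Whether the libraries of a group came from separate animals or separate cultures is not stated, so p-values measure only the spread between these samples, which may be technical. The comparison asks whether the level of each chain differed after the agomir. Values are FPKM, fragments scaled by transcript length and by the mapped fragments of the library, so levels of different genes can be set side by side. The FPKM of a library summed to between 365977 and 379361, while the number of reads behind each value is unknown.

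Collagens are triple helices of 3 chains that are wound in the endoplasmic reticulum, trimmed outside the cell and crosslinked into the matrix. Fibrillar chains build the load-bearing fibrils, type IV chains build the sheet of the basement membrane that surrounds each fat cell, and type VI chains build beaded microfilaments that are prominent in adipose tissue. Preadipocytes resemble fibroblasts and secrete mainly fibrillar collagen, and during differentiation into adipocytes the matrix shifts towards basement membrane components.

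The libraries held the RNA of mesenchymal cells and little of that of mature adipocytes. All 9 mesenchymal or fibroblast markers passed the minimum of a mean of 0.5 FPKM over the 6 libraries that was set for testing, led by VIM, an intermediate filament gene, at a mean of 5404 FPKM. Of 10 adipocyte markers, 6 passed the minimum, and all 10 together summed to between 12.2 and 13.8 FPKM per library, with LPL, a lipase gene, the most abundant at 3.73 FPKM. PCK1, of glyceride synthesis, was listed at 0 in every library, and ADIPOQ, which encodes the adipocyte hormone adiponectin, was at no more than 0.197 FPKM in any. The label adipocyte is therefore not matched by these defining markers. Of 5 preadipocyte markers, 2 passed, with ZNF423 the most abundant at 5.65 FPKM and DLK1 listed at 0 in all 6 libraries.

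Markers of other cell types that make collagen were low, except some of those of contractile cells. The 7 smooth muscle, pericyte or myofibroblast markers summed to between 483 and 537 FPKM, mainly through TAGLN (281 FPKM), which encodes an actin-binding protein, and ACTA2 (207 FPKM), the smooth muscle actin gene that marks myofibroblasts. The 8 endothelial markers summed to between 3.77 and 4.54 FPKM, with VWF highest at 3.39 FPKM and CLDN5 and EMCN listed at 0. The 7 chondrocyte markers summed to between 4.27 and 6.99 FPKM, with SOX9 at 3.53 FPKM and HAPLN1 listed at 0. The 6 epithelial markers reached at most 0.379 FPKM together, with KRT18, KRT5 and KRT14 listed at 0. For 7 leukocyte markers the sum was between 6.84 and 7.92 FPKM, mostly CD14 (6.27 FPKM), with MS4A1 at 0, and for 5 Schwann cell markers it was between 3.10 and 5.01 FPKM, mostly S100B (4.22 FPKM), with SOX10 at 0.

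Collagen transcripts held the first ranks in these cells. COL3A1, the single chain of type III collagen, ranked 1 among all genes by mean FPKM (7623 FPKM), and COL1A1 (5979 FPKM) and COL1A2 (5721 FPKM), the chains of type I collagen, ranked 2 and 3. Together the 43 chains made up 6.08% ± 0.135 (SD, n = 3) of the FPKM sum with the agomir and 5.95% ± 0.272 (SD, n = 3) with the agomir NC. In single libraries this share was 6.002%, 6.24% and 6.01% with the agomir and 5.89%, 6.24% and 5.71% with the agomir NC. The library numbered 2 was the highest of each group, and the groups overlapped.

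Fibrillar chains took nearly all of the collagen RNA in both groups. They held 91.2% ± 0.190 of the collagen FPKM sum with the agomir and 90.9% ± 0.130 with the agomir NC (SD, n = 3 each), and COL1A1, COL1A2 and COL3A1 alone held 87.1% ± 0.239 and 86.8% ± 0.232 (SD, n = 3 each). Type IV chains held 0.274% ± 0.00492 with the agomir and 0.271% ± 0.00933 with the agomir NC (SD, n = 3 each). All other classes held 8.55% ± 0.185 and 8.82% ± 0.128 (SD, n = 3 each), of which type VI made up the greater part, at 7.66% ± 0.172 and 7.89% ± 0.111 of the collagen sum. The groups overlapped for the type IV share, and for the fibrillar share only through agomir 3 (91.0558%), just below agomir NC 3 (91.056%). The share of other classes was 8.64%, 8.33% and 8.67% in agomir 1 to 3, against 8.91%, 8.88% and 8.68% in agomir NC 1 to 3. Here the groups did not overlap, but agomir 3 and agomir NC 3 nearly touched, and the type VI share on its own overlapped. These shares were not tested.

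**Figure D1:**
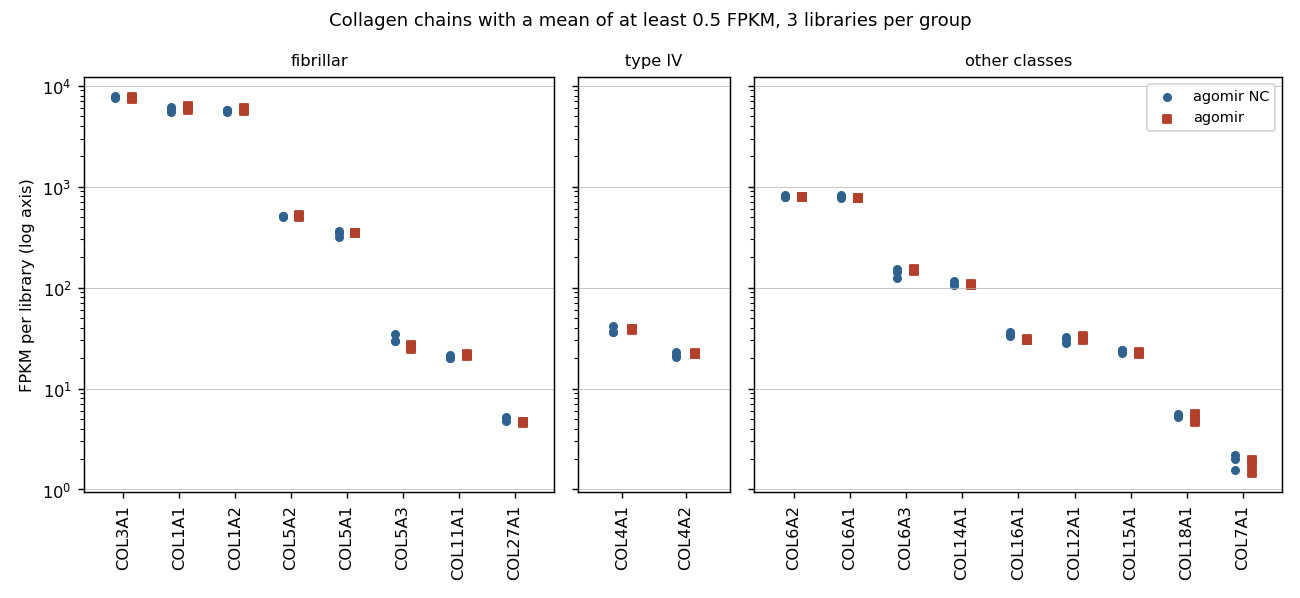
FPKM of the 19 collagen chains with a mean of at least 0.5 FPKM, on a log axis, by class (fibrillar, type IV, other). Each point is a library, with agomir NC libraries as circles and agomir libraries as squares. Levels ran from 1.82 FPKM on average for COL7A1 to 7623 FPKM for COL3A1, and for 16 of the 19 chains the groups overlapped.

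Of the 43 chains, 19 passed the minimum, 8 of them fibrillar, 2 of type IV and 9 of other classes. These were compared on log2(FPKM + 0.5), a scale on which the fold of weakly expressed genes is understated. None of the 19 was past an adjusted p of 0.05 in limma with Benjamini-Hochberg adjustment, a line that 0.00805% of all 12422 genes tested passed. At an unadjusted p under 0.05, 0 chains were higher with the agomir, against 6.63% of all genes, and 2 were lower, which is 10.5% of the chains against 4.31% of all genes. The chains that were lower were COL5A3 and COL16A1. Over all genes the split moved with the scaling, to 5.42% higher and 5.54% lower under median-ratio scaling and to 5.60% and 5.06% under quantile normalization, where 0 chains were higher and 2 lower as well. The agomir libraries all lay above the agomir NC libraries for 0 chains, against 10.9% of all genes, and all lay below them for 3, which is 15.8% of the chains against 6.36% of all genes. The third of these was COL27A1, named after its values were seen. The median log2 fold change was -0.024 over the 19 chains and 0.013 over all genes tested, with 9 chains above 0 and 10 below.

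In each class the median change was small. The median log2 fold change was 0.011 for fibrillar chains (5 positive, 3 negative), 0.034 for type IV chains (both positive) and -0.050 for the other chains (2 positive, 7 negative). The difference between classes was not tested. The median over the 19 chains changed sign under quantile normalization (0.017) and without agomir NC 2 (0.0018). It was -0.0070 without agomir 2, -0.014 without agomir 1, -0.043 without agomir NC 3, -0.040 under median-ratio scaling and 0 without a minimum, where all 43 chains entered. The sign also changed for the median of the fibrillar chains under median-ratio scaling (-0.0042) and without agomir NC 3 (-0.026). The type IV median was 0.0036 without agomir NC 1, 0.084 without agomir NC 2, 0.015 without agomir NC 3 and 0.019 under median-ratio scaling. That of the other chains was -0.022 without agomir NC 2, -0.076 without agomir NC 3 and -0.013 without a minimum. For the 17 chains that missed an unadjusted p of 0.05, the 95% confidence intervals of the fold, agomir over agomir NC, lay between 0.744 and 1.18, so larger differences than these lie outside the intervals of the single chains.

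**Figure D2:**
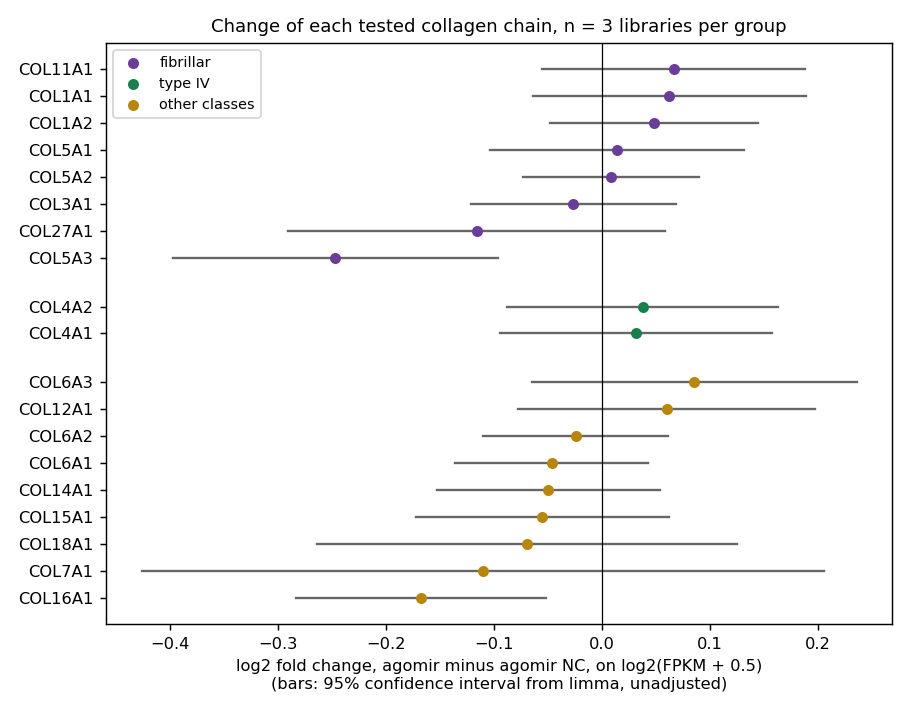
Log2 fold change of each of the 19 tested chains, agomir minus agomir NC, on log2(FPKM + 0.5), grouped by class. Points are estimates from 3 libraries per group and bars are 95% confidence intervals from limma, not adjusted for the number of genes. The intervals of COL5A3 (-0.40 to -0.097) and COL16A1 (-0.28 to -0.052) lie below 0, and those of the other 17 chains include 0.

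Among the chains above the minimum, the clearest difference was in COL5A3, the third chain of type V collagen. Type V is a minor fibrillar collagen that joins type I fibrils and limits their width. COL5A3 was at 27.2, 24.9 and 26.6 FPKM in agomir 1 to 3, against 29.7, 34.3 and 29.7 FPKM in agomir NC 1 to 3. The groups did not overlap, and agomir NC 2 stood above the other two of its group. Mean levels were 26.2 ± 1.19 and 31.2 ± 2.68 FPKM (SD, n = 3 each), so the level with the agomir was 0.839 times that of the control. The log2 fold change was -0.25 (standard error 0.067, 95% confidence interval -0.40 to -0.097), limma's unadjusted p was 0.00456 and its adjusted p was 0.305. By exact permutation over the 20 labelings of the libraries, two-sided, p = 0.1, which is the lowest value that 3 against 3 can reach. Without agomir NC 2 the log2 fold change was -0.18, and limma's unadjusted p stayed under 0.05.

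The other chains of type V collagen missed an unadjusted p of 0.05, and whether they differed from COL5A3 in their change was not tested. COL5A1, the chain present in nearly every type V trimer, was at 345, 350 and 348 FPKM in agomir 1 to 3, against 352, 367 and 317 FPKM in agomir NC 1 to 3. The agomir libraries lay close together inside the range of the agomir NC libraries, and the log2 fold change was 0.014 (95% confidence interval -0.10 to 0.13). COL5A2 was at 501, 518 and 507 FPKM in agomir 1 to 3, against 511, 512 and 496 FPKM in agomir NC 1 to 3, again overlapping, with a log2 fold change of 0.0083 (95% confidence interval -0.073 to 0.090). Quantile normalization gave 0.068 for COL5A1 and 0.059 for COL5A2. Both values fell below 0 under median-ratio scaling, at -0.0015 and -0.0069. COL5A1 also did so without agomir NC 3 (-0.045) and was at 0.058 without agomir NC 2, and COL5A2 was below 0 without agomir NC 3 (-0.0066) or agomir 2 (-0.0049).

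COL5A3 was also set against its partners within each library, in ratios chosen after the values were seen and not tested. The FPKM of COL5A3 over that of COL5A1 was 0.0787, 0.0710 and 0.0763 with the agomir and 0.0845, 0.0936 and 0.0934 with the agomir NC. All agomir libraries lay below all agomir NC libraries in this ratio. Over COL5A2 it was 0.0542, 0.0480 and 0.0523 against 0.0582, 0.0671 and 0.0598. COL5A3 is a small part of the type V RNA, and the 3 chains together held 3.95% ± 0.0505 and 3.995% ± 0.106 (SD, n = 3 each) of the collagen sum.

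**Figure D3:**
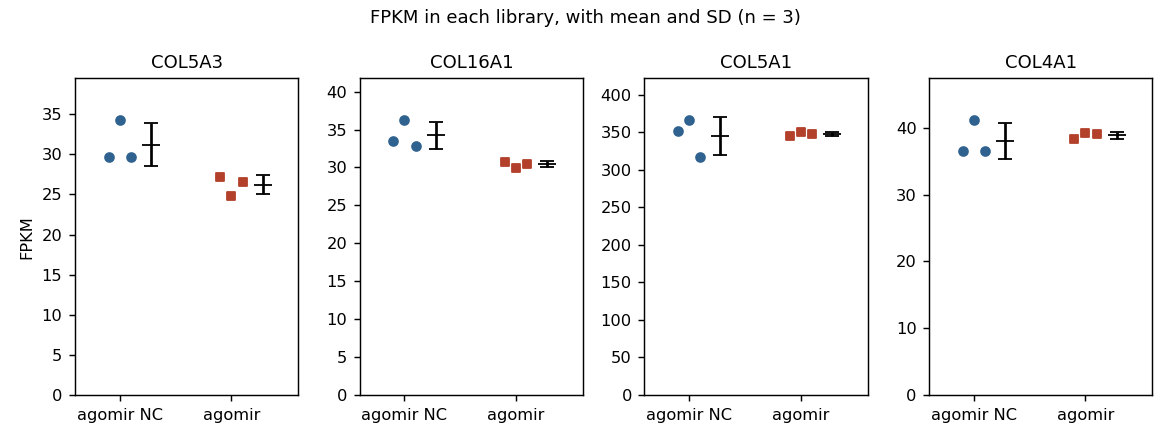
FPKM in each library for COL5A3, COL16A1, COL5A1 and COL4A1, with agomir NC libraries as circles and agomir libraries as squares. The black mark beside each group is its mean with the SD (n = 3), and each vertical axis starts at 0. For COL5A3 and COL16A1 all agomir libraries lie below all agomir NC libraries, while for COL5A1 and COL4A1 the agomir libraries lie inside the range of the agomir NC libraries.

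None of the chains of the major fibrils passed an unadjusted p of 0.05. COL3A1 was at 7428, 7666 and 7563 FPKM in agomir 1 to 3, against 7676, 7916 and 7491 FPKM in agomir NC 1 to 3. The groups overlapped, and the log2 fold change was -0.027 (standard error 0.042, 95% confidence interval -0.12 to 0.068). It was -0.0060 without agomir NC 2 and -0.046 without agomir NC 3. Quantile normalization, which gives each rank the same value in every library, set it to 0. COL1A1 was at 6139, 6364 and 5816 FPKM against 5473, 6201 and 5883 FPKM, and COL1A2 at 5656, 6001 and 5792 FPKM against 5689, 5704 and 5483 FPKM. Agomir 2 held the highest level of both type I chains, and the lowest was in an agomir NC library for each. Their log2 fold changes were 0.062 (95% confidence interval -0.064 to 0.19) and 0.048 (95% confidence interval -0.048 to 0.14). Over the 14 alternatives COL1A1 lay between 0.015, without agomir NC 1, and 0.10, without agomir NC 2. COL1A2 lay between 0.0059, under quantile normalization, and 0.068, and was at 0.025 without agomir 2 and 0.030 without agomir NC 3. Type I collagen is mostly built from a pair of COL1A1 chains and a single COL1A2 chain, and the FPKM of COL1A1 over COL1A2 was between 0.962 and 1.09 in all 6 libraries.

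The remaining fibrillar chains were COL11A1 and COL27A1, both best known from cartilage. COL11A1, a nucleator of thin fibrils, was at 21.6, 21.8 and 21.2 FPKM in agomir 1 to 3, against 21.7, 20.1 and 19.9 FPKM in agomir NC 1 to 3. Only agomir NC 1 lay among the agomir libraries, and the log2 fold change of 0.066 (95% confidence interval -0.055 to 0.19) was the highest of the fibrillar chains, with 0.11 without agomir NC 1 and 0.043 without agomir NC 3. COL27A1 was at 4.56, 4.67 and 4.64 FPKM in agomir 1 to 3, against 5.28, 5.14 and 4.76 FPKM in agomir NC 1 to 3. These groups did not overlap, but the gap between the nearest libraries was small, and limma gave a log2 fold change of -0.12 (95% confidence interval -0.29 to 0.058) with an unadjusted p of 0.168 and an adjusted p of 0.626.

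Basement membrane collagen was represented by COL4A1 and COL4A2, which form the common type IV trimer and lie next to each other in the genome. COL4A1 was at 38.3, 39.2 and 39.1 FPKM in agomir 1 to 3, against 36.5, 41.2 and 36.5 FPKM in agomir NC 1 to 3. COL4A2 was at 22.7, 22.2 and 21.8 FPKM in agomir 1 to 3, against 20.7, 23.0 and 21.3 FPKM in agomir NC 1 to 3. For both chains the agomir libraries fell inside the range of the agomir NC libraries, with agomir NC 2 highest and agomir NC 1 lowest. The log2 fold changes were 0.031 (95% confidence interval -0.095 to 0.16) for COL4A1 and 0.037 (95% confidence interval -0.088 to 0.16) for COL4A2. Without agomir NC 1 they were 0.0020 and 0.0052, and without agomir NC 2 they were 0.089 and 0.080. The ratio of COL4A1 to COL4A2 was between 1.69 and 1.79 in every library.

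COL15A1 and COL18A1, which attach to basement membranes, and COL7A1, the chain of the anchoring fibrils below them, missed an unadjusted p of 0.05. COL15A1 was between 22.2 and 24.1 FPKM, COL18A1 between 4.66 and 5.64 FPKM and COL7A1 between 1.44 and 2.18 FPKM over the 6 libraries. Their log2 fold changes were -0.055, -0.069 and -0.11, with limma's adjusted p between 0.744 and 0.817. Over the 14 alternatives COL15A1 lay between -0.089 and -0.035, COL18A1 between -0.13, without agomir 1, and -0.0070, without agomir 2, and COL7A1 between -0.22, without agomir NC 3, and -0.014, without agomir 1. When these chains were counted with type IV, the median of the basement membrane class moved from 0.034 to -0.055, and its share of the collagen sum was 0.406% with the agomir and 0.410% with the agomir NC.

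Among the chains that are neither fibrillar nor of type IV, COL16A1 was lower with the agomir. COL16A1 belongs to the fibril-associated collagens with interrupted triple helices (FACIT), which sit on the surface of fibrils and link them to other matrix parts. Its level was 30.8, 30.0 and 30.5 FPKM in agomir 1 to 3, against 33.6, 36.3 and 32.9 FPKM in agomir NC 1 to 3. The agomir libraries lay within 1 FPKM of each other and below all agomir NC libraries, of which agomir NC 2 was again the highest. Mean levels were 30.4 ± 0.407 and 34.3 ± 1.80 FPKM (SD, n = 3 each), or 0.888 times the control. The log2 fold change was -0.17 (standard error 0.052, 95% confidence interval -0.28 to -0.052), limma's unadjusted p was 0.00914 and its adjusted p was 0.330. Exact permutation again gave p = 0.1.

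The other FACIT chains above the minimum missed an unadjusted p of 0.05. COL12A1, found in tissues under tension, was at 30.3, 33.4 and 32.0 FPKM in agomir 1 to 3, against 32.3, 31.1 and 28.4 FPKM in agomir NC 1 to 3. COL14A1, which regulates early fibril growth, was at 106, 108 and 105 FPKM against 109, 116 and 105 FPKM. Both genes had overlapping groups, with log2 fold changes of 0.060 (95% confidence interval -0.078 to 0.20) and -0.050 (95% confidence interval -0.15 to 0.053). COL12A1 was at 0.0078 without agomir NC 3 and 0.099 without agomir NC 1, and COL14A1 at -0.0092 without agomir NC 2 and -0.081 without agomir NC 3.

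The mesenchymal markers were compared in the same way. The 9 markers summed to 9705, 10053 and 9847 FPKM in agomir 1 to 3, against 10083, 10423 and 10781 FPKM in agomir NC 1 to 3. These sums did not overlap between the groups, but as shares of the FPKM sum of each library they did. Agomir 2 held 10053 of 367423 FPKM, a higher share than agomir NC 1 with 10083 of 369489 FPKM. Agomir NC 3 held the highest of both sums, at 10781 FPKM for the markers and 379361 over all genes. At an unadjusted p under 0.05 in limma, 2 of the 9 were lower and 0 higher, against 4.31% and 6.63% of all genes tested. They were NT5E, a surface nucleotidase, with a log2 fold change of -0.25 (adjusted p = 0.209), and DCN, which encodes the fibril-binding proteoglycan decorin, with -0.12 (adjusted p = 0.376). DCN was no longer under that p without agomir 1 (-0.11) or agomir 3 (-0.12), without a minimum or without the variance trend. Quantile normalization, which leaves no difference in a gene that keeps its rank in every library, set that of DCN to 0. ENG, another of the 9, came under that p with median-ratio scaling and without a minimum, and THY1 did so without agomir NC 1. The part of these markers in the levels of COL5A3 and COL16A1 was not tested, and in such bulk samples fewer cells of a type cannot be told apart from less RNA per cell. Among the 6 adipocyte markers tested, 1 was lower and 1 higher at an unadjusted p under 0.05 in limma. FABP4 was lower (log2 fold change -0.49, adjusted p = 0.363), with overlapping groups, as agomir 2 (2.33 FPKM) lay above agomir NC 2 (2.21 FPKM). PPARG was higher (0.23, adjusted p = 0.407), with groups that did not overlap. The unadjusted p was no longer under 0.05 for FABP4 without agomir 3 (-0.38) or agomir NC 1 (-0.35) or without a minimum, and for PPARG without agomir 1 (0.21), agomir 3 (0.22) or agomir NC 3 (0.17). The sum over the adipocyte list overlapped between the groups. The sums of the preadipocyte, endothelial, contractile, chondrocyte, leukocyte and Schwann cell markers overlapped too. That of the epithelial markers did not, at 0.145, 0.169 and 0.221 FPKM in agomir 1 to 3, against 0.311, 0.239 and 0.379 FPKM in agomir NC 1 to 3, with each of these genes below the minimum.

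Type VI collagen had the highest levels outside the fibrillar class. COL6A1 was at 775, 772 and 774 FPKM in agomir 1 to 3, against 805, 827 and 767 FPKM in agomir NC 1 to 3. COL6A2, its neighbour in the genome, was at 787, 792 and 787 FPKM against 786, 832 and 789 FPKM. In both, the agomir libraries were nearly equal and overlapped with the agomir NC libraries, with log2 fold changes of -0.047 (95% confidence interval -0.14 to 0.043) and -0.024 (95% confidence interval -0.11 to 0.061). Under quantile normalization both were above 0, at 0.017 and 0.042, and COL6A2 was at 0.0018 without agomir NC 2. COL6A1 was at -0.022 without agomir NC 2 and -0.076 without agomir NC 3. The ratio of COL6A1 to COL6A2 was between 0.972 and 1.02 in all libraries.

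COL6A3, the longest chain of the common type VI trimer and the source of the adipokine endotrophin, was at a lower level than its partners. Its level was 149, 145 and 151 FPKM in agomir 1 to 3, against 142, 154 and 125 FPKM in agomir NC 1 to 3. The agomir NC libraries spanned the agomir libraries, and the log2 fold change was 0.085 (95% confidence interval -0.065 to 0.24). Without agomir NC 2 it was 0.15, with limma's unadjusted p at 0.0241, and without agomir NC 3 it was 0.0060. Per unit of COL6A1, COL6A3 was at 0.192, 0.188 and 0.195 with the agomir and at 0.176, 0.186 and 0.163 with the agomir NC. In this ratio all agomir libraries lay above all agomir NC libraries, though agomir 2 and agomir NC 2 were nearly equal.

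The remaining 24 chains were below the minimum and were not tested. They comprised 3 fibrillar chains, 4 type IV chains and 17 others, and none exceeded 0.317 FPKM in any library. COL26A1, COL22A1 and COL28A1 were listed at 0 in all 6 libraries, a further 11 were listed at 0 in some libraries, and 10 were above 0 in all. Chains that define other tissues were among them, such as COL2A1 of cartilage, at no more than 0.0110 FPKM, COL17A1 of epithelial attachment, listed at 0 in 5 libraries, and COL4A3 and COL4A4 of the kidney filter, at no more than 0.0431 FPKM.

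Within these low values, COL21A1 and COL4A5 were apart between the groups, and they were named after their values were seen. COL21A1, a FACIT chain, was at 0.307, 0.290 and 0.278 FPKM in agomir 1 to 3, against 0.144, 0.0849 and 0.183 FPKM in agomir NC 1 to 3, all agomir libraries being higher. COL4A5, a type IV chain, was at 0.112, 0.102 and 0.0990 FPKM in agomir 1 to 3, against 0.165, 0.163 and 0.132 FPKM in agomir NC 1 to 3, all agomir libraries being lower. Of all 11053 genes below the minimum, 1.88% lay apart with the agomir higher and 1.84% with it lower. Of the 2158 that were above 0 in all 6 libraries, as both chains were, these shares were 5.00% and 5.33%. Without the minimum, limma gave them unadjusted p-values of 0.00501 and 0.00675 and adjusted p-values of 0.396 and 0.422. The standard error of COL3A1 was 1.03 there, against 0.042 with the minimum, so these p-values may not compare with those given with the minimum. Of all 23475 genes, 4.46% were higher and 2.81% lower at an unadjusted p under 0.05 in the fit without the minimum. How many reads stand behind values at this level is unknown.

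Genes that make, trim, crosslink, bind or break down collagen were followed as a list of 49, of which 48 were in the table and 38 passed the minimum. None of the 38 was past an adjusted p of 0.05 in limma. At an unadjusted p under 0.05, 2 were higher (5.26% of the list) and 5 lower (13.2% of the list) with the agomir. Under quantile normalization 4 were higher and 2 lower, against 5.60% and 5.06% of all genes in that fit. Under median-ratio scaling 2 were higher and 7 lower, against 5.42% and 5.54%. Without the variance trend 1 was lower (3.94% of all genes in that fit), and with the replicate block 3 were lower (4.20%). With 1 library left out, 0 to 3 were higher (4.47% to 6.68% of all genes) and 2 to 4 lower (3.08% to 4.80%). The agomir libraries lay above all agomir NC libraries for 4 genes (10.5%) and below them for 10 (26.3%), and the median log2 fold change was -0.0042. With all libraries and no further scaling, the shares over all genes tested are those given for the chains.

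The genes that were lower modify or fold the chains, or help to trim them. PCOLCE, which enhances the removal of the C-terminal propeptide of fibrillar procollagens, was at 407, 402 and 404 FPKM in agomir 1 to 3, against 422, 456 and 458 FPKM in agomir NC 1 to 3. All agomir libraries were below all agomir NC libraries, and the log2 fold change in limma was -0.14 (adjusted p = 0.330, standard error 0.042). BMP1, the protease that PCOLCE assists, had a log2 fold change of -0.030 (95% confidence interval -0.13 to 0.073), with 0.0062 without agomir NC 2, and was named after its values were seen. The other 4 genes act in the endoplasmic reticulum. They were PPIB, a prolyl isomerase (log2 fold change -0.12), FKBP10, a prolyl isomerase and chaperone (-0.11), COLGALT1, which adds galactose to hydroxylysine (-0.100), and PLOD3, a lysyl hydroxylase that also adds sugars (-0.096), with adjusted p between 0.363 and 0.446 in limma.

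The genes that were higher were PLOD2 and DDR1. PLOD2, which hydroxylates lysines in the telopeptides and thereby sets the kind of crosslink, was at 54.3, 59.5 and 57.1 FPKM in agomir 1 to 3, against 52.5, 50.2 and 52.0 FPKM in agomir NC 1 to 3. All agomir libraries were above all agomir NC libraries, and the log2 fold change in limma was 0.14 (adjusted p = 0.354, standard error 0.048). DDR1, a receptor kinase for collagen, was at 4.54, 4.09 and 3.84 FPKM against 3.52, 3.64 and 3.27 FPKM, also without overlap, and the log2 fold change in limma was 0.23 (adjusted p = 0.425, standard error 0.093).

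Of these genes, PCOLCE had an unadjusted p under 0.05 under all 14 alternatives, but quantile normalization moved its log2 fold change from -0.14 to -0.082. Each of the other 6 lost its call without at least 1 of the libraries. The unadjusted p was no longer under 0.05 for PLOD2 without agomir 2 (log2 fold change 0.11), for PPIB without agomir 2 (-0.098) and for FKBP10 without agomir 1 (-0.086). For DDR1 this was so without agomir 1 (0.17), agomir 2 (0.23), agomir NC 1 (0.23) or agomir NC 3 (0.19). With 1 library left out, PLOD3 kept its call only without agomir 3 (-0.12) and had log2 fold changes between -0.10 and -0.078 with another library left out. COLGALT1 kept its call only without agomir 2 (-0.13) and had log2 fold changes between -0.11 and -0.085 with another left out. Under quantile normalization PPIB moved from -0.12 to -0.058 (unadjusted p = 0.124 in limma). PLOD3 (-0.079, from -0.096) and COLGALT1 (-0.086, from -0.100) lost their calls there too, with a smaller move in the fold. Without the variance trend PPIB, FKBP10, PLOD3 and COLGALT1 were no longer under an unadjusted p of 0.05. With the replicate block PLOD3 and COLGALT1 also lost their calls (unadjusted p in limma 0.0699 and 0.0753). The log2 fold changes were unchanged in both of these fits.

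Apart from PCOLCE, the most abundant gene of each step had a 95% confidence interval that included 0. In hydroxylation it was P4HA2, a prolyl hydroxylase subunit, at a mean of 435 FPKM (log2 fold change 0.052, 95% confidence interval -0.028 to 0.13). All agomir libraries were above all agomir NC libraries for P4HA2, and quantile normalization brought it under an unadjusted p of 0.05 (0.088). In folding and export it was SPARC, a collagen-binding matrix protein, at 3822 FPKM (-0.011, 95% confidence interval -0.098 to 0.076), with a value above 0 under quantile normalization (0.053) and without agomir NC 3 (0.0069). None of the 5 crosslinking enzymes passed an unadjusted p of 0.05, and LOXL2, the most abundant, was at 431 FPKM (-0.086, 95% confidence interval -0.18 to 0.0028). All agomir libraries were below all agomir NC libraries for LOXL2. Its unadjusted p was under 0.05 with median-ratio scaling (-0.10) and without agomir NC 1 (-0.11), while quantile normalization gave -0.025. Among receptors ITGB1, an integrin subunit, was at 285 FPKM (-0.015, 95% confidence interval -0.10 to 0.073), and it was above 0 under quantile normalization (0.050) and without agomir 1 (0.0090) or agomir NC 1 (0.0024). In uptake and breakdown MMP2, a gelatinase, was at 2152 FPKM (-0.079, 95% confidence interval -0.17 to 0.0062), again with all agomir libraries below all agomir NC libraries. Its unadjusted p was under 0.05 with median-ratio scaling (-0.095) and without agomir NC 3 (-0.091), while quantile normalization gave -0.018.

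The libraries were not equally spread. Over the 19 chains the median coefficient of variation was 1.71% among the agomir libraries and 5.24% among the agomir NC libraries. Agomir NC 2 held the highest value of 13 of the 19 chains and agomir NC 3 the lowest value of 8. Agomir 2 was the highest for 5 chains and the lowest for 4. COL5A3 and COL16A1 had an unadjusted p under 0.05 with each of the 6 libraries left out in turn, agomir NC 2 and agomir NC 3 included.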

How the data were processed

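Total RNA was sequenced in 6 libraries. Per the labels' processing notes, the submitters named fastp, HISAT2 and StringTie and the build ARS-UCD1.2, with no versions. The authors deposited FPKM per gene and library, normalized for transcript length and mapped fragments. Ratios of 2648 low genes between 2 libraries did not fall into steps (no bin of 0.002 in log2 held more than 10 genes). Whole reads were therefore not recoverable, depth is unknown and no counting error is given.

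The 12422 of 23475 genes whose mean reached 0.5 FPKM in the 6 libraries were analysed as log2(FPKM + 0.5). Groups were compared with limma 3.58.1 in R 4.3.3, using a moderated two-sided test with a variance trend, with Benjamini-Hochberg adjustment across the 12422 genes. Confidence intervals are at the 95% level. Single genes were also compared by an exact two-sided permutation test over the 20 labelings. The model was tested on simulated data. Neighbouring genes were read from the RefSeq table of another assembly, in which all 43 chains matched by symbol, and no positions are given.

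The members and lists were chosen with earlier results of these data known. Chains were named if among the 12 highest by mean FPKM, past an unadjusted p of 0.05, of type IV and tested, or with the largest change each way in a class. Genes acting on collagen were named if past that p or most abundant in a step. Any other gene, markers apart, was named after its values were seen. The alternatives were pseudocounts of 0.1 and 1, no minimum and a minimum of 1 FPKM, quantile normalization and median-ratio scaling, a fit without the variance trend, a replicate block, each library left out, and types VII, XV and XVIII counted with type IV.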

Additional observations from a re-analysis of the deposited data

How the results depend on the processing

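No chain passed an adjusted p of 0.05 in limma under any of the 14 alternatives, and COL5A3 and COL16A1 had an unadjusted p under 0.05 in all 14. The log2 fold change of COL5A3 lay between -0.28 and -0.18 (adjusted p between 0.269 and 0.570) and that of COL16A1 between -0.20 and -0.13 (adjusted p between 0.311 and 0.571). Without a minimum, where all 43 chains were tested, the chains lower at an unadjusted p under 0.05 numbered 4, with COL27A1 and COL4A5 added, and 1 was higher, COL21A1, against 2.81% and 4.46% of all genes in it. That fit gave standard errors of 1.03 for COL3A1, 0.70 for COL1A1 and 0.65 for COL1A2, against 0.042, 0.056 and 0.043 with the minimum. Their log2 fold changes were the same in both fits, which differ only in the genes that enter. The cause was not tested.

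With 1 library left out, between 0 and 1 chains were higher, the 1 being COL6A3 without agomir NC replicate 2. The median over fibrillar chains, 0.011, then ranged from -0.026, without agomir NC replicate 3, to 0.033. The type IV median of 0.034 fell between 0.0036 (agomir NC replicate 1 left out) and 0.084. Quantile normalization moved the median over all chains from -0.024 to 0.017, median-ratio scaling to -0.040, and no minimum to 0. With 1 library left out it lay between -0.043 and 0.0018, and the type IV median was -0.055 with types VII, XV and XVIII counted in. Of the genes acting on collagen, 2 higher and 5 lower, quantile normalization gave 4 higher and 2 lower (5.60% and 5.06% of all genes in that fit), and the fit without a variance trend gave 1 lower (3.94%). Median-ratio scaling gave 7 lower (5.54%), with LOXL2 and MMP2 added, and no minimum gave 7 lower (2.81%), with P4HA1 and P3H1 added. With 1 library left out, 0 to 3 were higher (4.47% to 6.68% of all genes) and 2 to 4 lower (3.08% to 4.80%). The cause of these shifts was not tested.

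For 36 single genes the alternatives gave 504 values, of which 445 kept direction and side of an unadjusted p of 0.05. In the same direction, 36 fell short of it and 7 passed it, while 2 were set to 0, and 14, from 7 genes, changed sign. Quantile normalization gave 0.042 for COL6A2, 0.017 for COL6A1, 0.053 for SPARC, 0.050 for ITGB1, 0.068 for COL5A1 and 0.059 for COL5A2, and median-ratio scaling gave -0.0069 for COL5A2 and -0.0015 for COL5A1. With 1 library left out, COL6A2 ranged from -0.039 to 0.0018, COL5A2 from -0.0066 to 0.019, COL5A1 from -0.045 to 0.058, SPARC from -0.021 to 0.0069, ITGB1 from -0.032 to 0.0090 and BMP1 from -0.061 to 0.0062. The cause was not tested. Quantile normalization, which leaves no difference in a gene that keeps its rank, set the differences of COL3A1, the highest gene, and DCN to 0.

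Libraries of both groups are numbered 1 to 3. The correlation of deviations from the group mean between libraries of the same number was -0.051, 0.053 and 0.039 across 12422 genes. Libraries of unlike number were not compared, so whether those of the same number share an animal, a culture or a batch remains unknown. With the replicate block, 3 of the genes acting on collagen were lower instead of 5 (4.20% of all genes), without PLOD3 and COLGALT1 (unadjusted p in limma 0.0699 and 0.0753), and the 2 chains called were the same, COL5A3 and COL16A1. For the 24 chains below 0.5 FPKM, the precision is unknown because the depth is.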
